A study of Mus musculus with 14 samples.

Results

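The activator protein 1 (AP-1) family with its BATF and IRF4 partners was followed through 10 genes, Junb, Jun, Jund, Fos, Fosb, Fosl2, Batf, Batf3, Irf4 and Atf3. They were picked by symbol from the 53564 gene IDs that both count tables of the study list, and all 10 were found in each table. The study deleted Junb in Foxp3-expressing regulatory T cells (Tregs) of adult mice and sequenced the RNA of Tregs sorted from the gut in 14 libraries. PP Tregs were CD4+Foxp3(YFP)+CD62L- cells from the Peyer's patches (PP), lymphoid follicles of the small intestine, of male mice with a constitutive Foxp3-YFP-cre. In this line JunB F/+ Foxp3YFPcre mice (HET, n = 2) were compared with JunB F/F Foxp3YFPcre mice (KO, n = 2), with no treatment. In an inducible line carrying Foxp3ERT2cre (1 copy in males, both in females) and Rosa26-tdTomato, a reporter of cre activity, JunB F/+ (iHET) and JunB F/F (iKO) mice were given tamoxifen by gavage (8 mg each time, 3 times, days 0, 1 and 3) before collection on day 7. Here CD25- PP Tregs were TCRb+CD4+Foxp3(EGFP)+tdTomato+CD25- cells (2 iHET and 2 iKO), and colonic Tregs came from the lamina propria through the same gate without the CD25 condition (3 iHET and 3 iKO). In both inducible populations replicate 1 was a male and the others were females.

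Several features limit these groups as models of JunB loss. The controls carried 1 floxed Junb allele and the same cre, so that every library came from cells with at least 1 Junb allele open to deletion, and no library came from cells with both alleles intact. The methods name unwanted germline deletion as a known property of the constitutive cre. The organs differed in gate (CD25- in PP only), in dissociation and in the share of male mice as well, and the lines differed in tamoxifen, gate, sex and sequencer, so that these factors cannot be told apart in comparisons between organs or between lines.

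AP-1 factors are dimers of basic leucine zipper (bZIP) proteins. The Jun proteins JunB, c-Jun and JunD pair among themselves or with a Fos protein (c-Fos, FosB, Fra-2 from Fosl2), whereas Fos proteins need a Jun partner. BATF and BATF3 lack a transactivation domain of their own and, bound to a Jun protein, recruit IRF4 to composite DNA elements in T cells, where they drive effector programs including that of effector Tregs. Most of these genes are immediate early genes, whose transcripts rise within minutes of receptor signalling or stress and are short-lived, and ATF3 is a stress-induced bZIP repressor.

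The region before the transcription start site is shown for 4 members, the deleted gene, the founding Jun and Fos genes and the member that differed most between organs, because these genes are known for rapid control at the promoter. The sequences are the 120 bases before the RefSeq start on GRCm38.p6, read in the direction of transcription, and capitals mark the motifs TGACGT (the core of the cAMP response element), TGACATCA (a Jun-type AP-1 site), CCAAT and TATAAA on either strand. Their positions were chr8:84978749-84978868 (minus strand) for Junb, chr4:95052223-95052342 (minus) for Jun, chr12:85473770-85473889 (plus) for Fos and chr1:191183334-191183453 (minus) for Atf3. In the GENCODE annotation the Junb gene begins at chr8:84978718, downstream of the RefSeq start. The Atf3 gene begins at chr1:191218039 there, so that the RefSeq start used lies inside it.
Junb: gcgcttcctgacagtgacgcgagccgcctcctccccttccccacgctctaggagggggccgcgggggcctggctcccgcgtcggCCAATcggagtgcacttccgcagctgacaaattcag
Jun: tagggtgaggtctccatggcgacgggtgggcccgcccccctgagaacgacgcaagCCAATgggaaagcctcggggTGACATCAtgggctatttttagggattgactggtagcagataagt
Fos: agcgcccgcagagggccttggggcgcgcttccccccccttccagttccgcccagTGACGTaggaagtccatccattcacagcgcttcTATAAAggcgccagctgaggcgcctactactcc
Atf3: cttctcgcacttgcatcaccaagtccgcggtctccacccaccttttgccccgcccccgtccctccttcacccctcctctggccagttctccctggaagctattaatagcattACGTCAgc

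Across the windows from 250 bases before to 50 bases after the start, the canonical AP-1 site TGANTCA was found in 0 of the 10 members and in 7.81% of 32851 mouse windows, searched on both strands. The full cAMP response element TGACGTCA was in 0 members and 1.79% of windows. Its core TGACGT, which the full element contains, was in 3 members (Fos, Batf and Atf3) and 7.51% of windows, and TGACATCA was in Jun alone of the members and 3.62% of windows. CCAAT was in 3 members (Junb, Jun and Atf3) and 37.4% of windows, and TATAAA was in 3 (Junb, where it lies at the RefSeq start itself, Fos and Irf4) and 13.6% of windows. Such matches describe the letters only, and those of Junb and Atf3 depend on the RefSeq start chosen.

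The libraries held between 26274861 and 35508709 counts, so that a count of 3, taken as the floor, stood for 0.0845 to 0.114 CPM (counts scaled to library size). Levels are given as CPM normalised by trimmed mean of M values (TMM) within each table. Treg identity markers were present in all 14 libraries, with Ctla4 the highest of the 7 and summed levels of 5591 to 9364 CPM. Markers of other cells were present at lower levels: the summed level of 8 B and plasma cell markers ranged from 91.7 to 253 CPM, that of 10 myeloid and dendritic markers from 141 to 483 CPM, that of 8 epithelial markers from 51.6 to 1140 CPM, and that of 6 stromal and endothelial markers from 84.5 to 984 CPM. At least 1 library had no read of Muc2 (epithelium), Itgam, Itgax or Clec9a (myeloid and dendritic), or Cdh5 or Pdgfra (endothelium and stroma). A single CD25- PP library, iHET replicate 2, stood apart from the other 3 of its comparison. It was the lowest by over 2-fold for 122 of 17079 genes (0.714%), among them Fosl2 and Atf3, against 4 to 65 genes in the other 13 libraries, and the results that it moved most are given with and without it. Of the colonic libraries, iHET replicate 3 stood apart most: it was the highest by over 2-fold for 108 of 16313 genes and the lowest for 65, and it holds the lowest colonic Jun value.

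**Figure D1:**
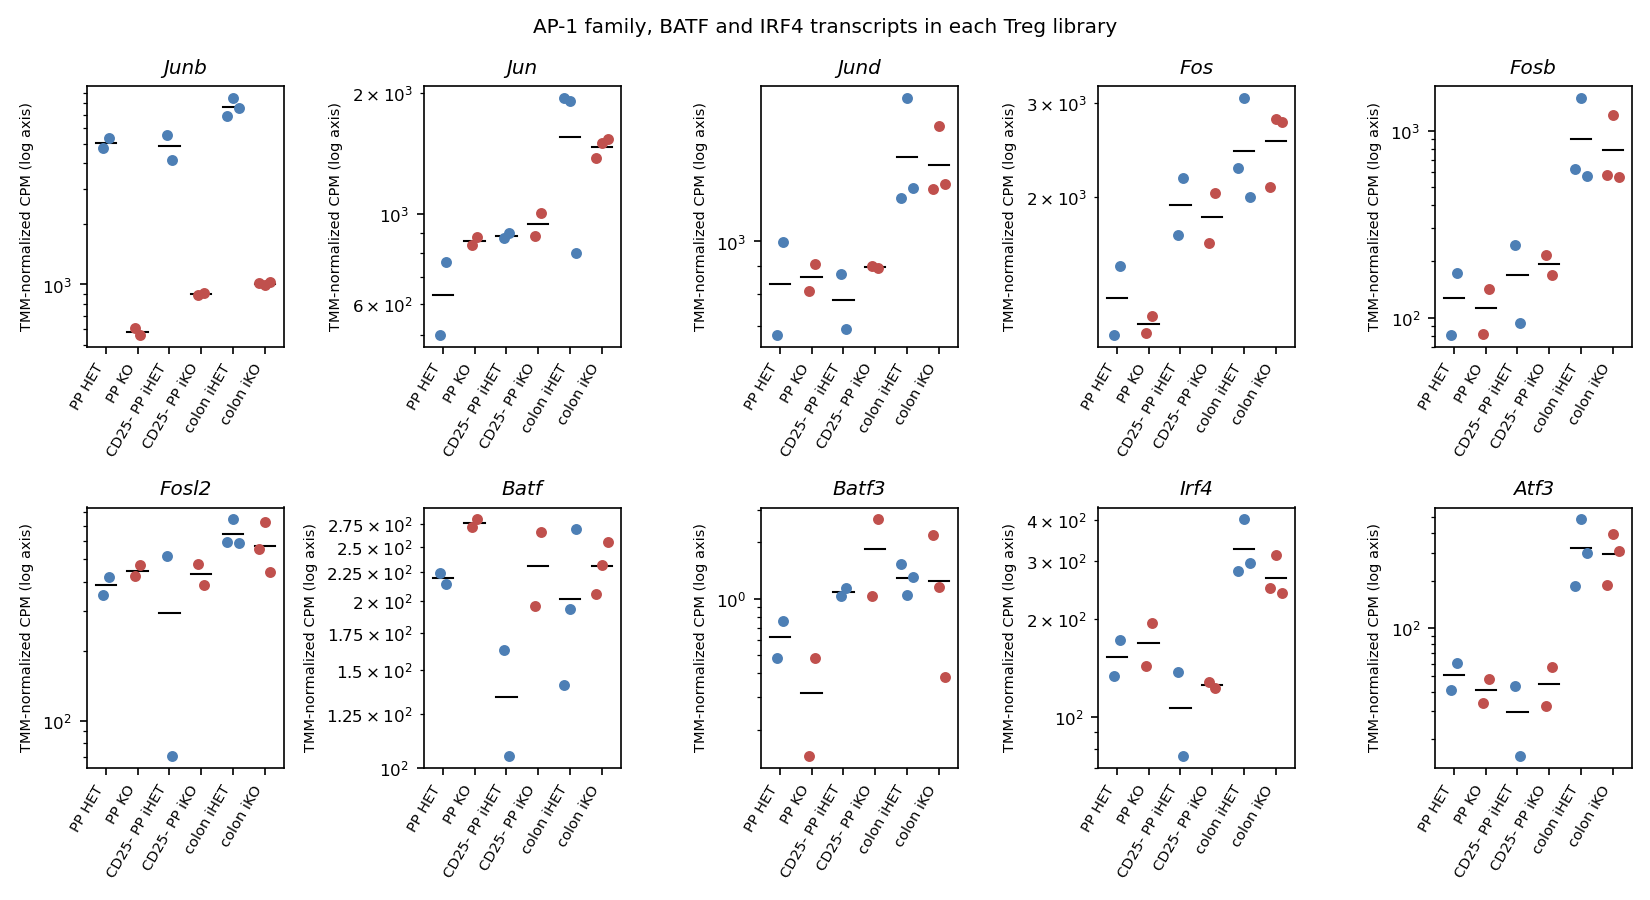
Level of each of the 10 genes in all 14 libraries, as TMM-normalised CPM on a log axis, by group; points are libraries (blue, heterozygous; red, deleted) and black lines are group means. Junb is lower in every deleted library than in every control of its population. None of the other 9 genes is called between genotypes with all libraries, and CD25- PP iHET replicate 2 is the low point for Fosl2 and Atf3.

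Junb was tested first, since its reads check the labels. The gene (ENSMUSG00000052837.6, 3 exon blocks, chr8:84974484-84978718, minus strand, GRCm38) was read at 4752 and 5329 CPM in the PP HET libraries and at 606 and 561 CPM in the PP KO libraries. It was read at 5547 and 4182 CPM in CD25- PP iHET and at 891 and 911 CPM in iKO libraries. In colonic Tregs it was read at 6865, 8471 and 7514 CPM in iHET and at 1012, 993 and 1029 CPM in iKO libraries. Every deleted library was below every control library of its population so that the Junb level went against no genotype label.

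Deletion left 11.6% ± 1.13 (n = 2 against 2) of the control level in PP Tregs, 18.5% ± 3.69 (n = 2 against 2) in CD25- PP Tregs and 13.3% ± 1.43 (n = 3 against 3) in colonic Tregs. The spread given combines the SDs of the libraries of both groups and is not a standard error of the ratio. On the log2 scale the difference was -3.11 (SE 0.116, edgeR quasi-likelihood test, FDR = 4.74e-05) in PP Tregs. In colonic Tregs it was -2.91 (95% confidence interval -3.23 to -2.60, FDR = 0.0183), with the replicate number, taken as the cage, as a term of the fit. In CD25- PP Tregs it was -2.44 (SE 0.173; FDR = 0.0940), which missed the threshold of 0.05 over 17079 genes. There edgeR's exact test, which the study used, gave an FDR of 7.66e-20. The quasi-likelihood test called Junb without iHET replicate 2 (-2.63, FDR = 0.00125) or iHET replicate 1 (-2.23, FDR = 0.00105), did not call it without either iKO library (FDR up to 0.156), and gave an FDR of 0.446 with the replicate number as a block. Junb ranked first of all genes tested by p in each of the 3 comparisons. In the colon the call of Junb was lost when iHET replicate 1 or 2 or iKO replicate 1 or 2 was left out, with a highest FDR of 0.247, while the difference stayed between -2.98 and -2.83.

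The remaining Junb reads were not few. In the deleted libraries 15122 to 32402 reads were counted on the gene, and Junb still stood above 99.2% to 99.8% of the genes with a read in any library of the same table. Taken against the mean of its controls, the residual share per library was 11.1% to 12.0% in PP KO, 18.3% to 18.7% in CD25- PP iKO and 13.0% to 13.5% in colonic iKO, so that deleted replicates lay close together and the 3 groups did not overlap, while the controls, which all libraries of a group share as denominator, spread more. The difference of the Junb log2 change between CD25- PP and PP Tregs was 0.68 (95% confidence interval 0.24 to 1.13; FDR = 0.355) and that between colonic and CD25- PP Tregs was -0.48 (-0.93 to -0.03; FDR = 1.00), and neither passed over all genes. In bulk samples, fewer cells that retain Junb and less Junb RNA per cell cannot be told apart, and gene counts do not show where along the gene the remaining reads lie. The gate of the inducible line took cells positive for tdTomato, the reporter of cre activity. For that line the paper reports a complete absence of JunB protein by flow cytometry at the same day after tamoxifen. Its protein measurement used mice with another reporter, ZsGreen. Whether the remaining Junb reads yield protein was not tested. Exons of Junb share 173 bases (7.52%) with Prdx2 on the opposite strand. Reads that overlap both genes were left unassigned by the counting, which did not use strand.

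Values of other cell types stood beside the loss of Junb in PP Tregs, where 3.35% of all genes tested were called. There 6 of 8 epithelial markers were called lower in KO, with Krt8 at -4.27 on the log2 scale (FDR = 0.00149), and summed levels of 119 to 151 CPM in HET and 51.6 to 57.4 CPM in KO libraries. Of the 8 B and plasma cell markers 2, Cr2 and Sdc1, were called lower, with sums of 162 to 253 CPM in HET and 103 to 179 CPM in KO libraries. No marker of any list was called in the CD25- PP or colonic genotype comparison, where 0 of 17079 and 1 of 16313 genes were called. All 7 epithelial markers tested in CD25- PP Tregs had log2 differences below 0, with a median of -0.25. Summed epithelial levels there were 130 to 258 CPM in iHET and 97.1 to 140 CPM in iKO libraries. In colonic Tregs 7 of 8 epithelial markers lay above 0. The Treg markers Foxp3 (log2 difference 0.51, FDR = 0.0167) and Il2ra, the gene of CD25 (0.73, FDR = 0.0199), were higher in PP KO Tregs, and 0 of 7 were called lower. The part of these shifts in the members' values was not tested.

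Neither of the other Jun genes was called between genotypes with all libraries. Jun, which encodes c-Jun (chr4:95049034-95052222, minus strand, 1 exon), was read at 501 and 760 CPM in PP HET and at 840 and 877 CPM in PP KO libraries. The groups did not overlap, but the log2 difference of 0.45 (SE 0.171) did not pass over all genes (FDR = 0.278). Without HET replicate 2 it was 0.77 and was called (FDR = 0.0410). In CD25- PP Tregs it was read at 874 and 896 CPM in iHET and 885 and 1009 CPM in iKO, a log2 difference of 0.09 (interval -0.22 to 0.41). In colonic Tregs 2 iHET libraries lay at 1945 and 1909 CPM and the third at 800 CPM, and the iKO libraries at 1381, 1502 and 1535 CPM fell in between (log2 difference 0.02, interval -0.72 to 0.76). Without iHET replicate 3 the colonic difference was -0.42. Exons of Jun share 232 bases (7.28%) with the antisense gene Junos.

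Jund, which encodes the broadly expressed JunD (chr8:70698949-70700616, plus strand, 1 exon), varied least of the Jun genes. It was read at 674 and 998 CPM in PP HET and 813 and 907 CPM in PP KO, at 871 and 692 CPM in CD25- PP iHET and 900 and 895 CPM in iKO. In colonic Tregs it was read at 1199, 1835 and 1254 CPM in iHET and at 1247, 1630 and 1275 CPM in iKO libraries. The log2 differences between genotypes were 0.04 (interval -0.35 to 0.43), 0.19 (-0.17 to 0.56) and -0.03 (-0.30 to 0.23) in PP, CD25- PP and colonic Tregs, none of them called. The 2 CD25- PP groups did not overlap, and with 1 library left out the difference ranged from 0.033 (without iHET replicate 2) to 0.36. Of the exon bases of Jund, 52.6% are shared with the antisense gene Gm11175, on which 0 reads were counted in every group. Reads that overlap both genes were counted for neither.

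Per kilobase of exon, which allows levels of different genes to be compared, Junb made up 76.1% ± 3.66 (SD, n = 2) of the reads of the 3 Jun genes in PP HET and 24.5% ± 2.15 (n = 2) in PP KO libraries. The share was 73.8% ± 2.02 (n = 2) in CD25- PP iHET and 31.9% ± 0.314 (n = 2) in iKO, and 71.4% ± 4.46 (n = 3) in colonic iHET and 25.5% ± 2.23 (n = 3) in colonic iKO libraries. Junb was thus the most abundant Jun transcript in each control group, and in the deleted groups, at 254, 392 and 439 CPM per kilobase, it lay below Jund and beside Jun at 269, 297 and 462 CPM per kilobase. The summed Jun-family level in the deleted groups was 35.9% of the control level in PP, 42.9% in CD25- PP and 37.2% in colonic Tregs. Against a Junb difference of -1937, -1722 and -2871 CPM per kilobase in the same order, the sum of Jun and Jund differed by 86.2, 89.2 and -52.1 CPM per kilobase. That sum was 699 ± 195 (SD) in PP HET and 785 ± 48.3 in PP KO libraries. It was 746 ± 71.0 and 835 ± 25.3 in CD25- PP iHET and iKO, and 1343 ± 348 and 1291 ± 140 in colonic iHET and iKO. The PP and colonic differences were smaller than the SD of their controls. With the exon bases shared with other genes left out of the lengths, the Junb share was 65.4%, 63.8% and 60.9% in the controls and 16.6%, 22.6% and 17.6% in the deleted groups.

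**Figure D2:**
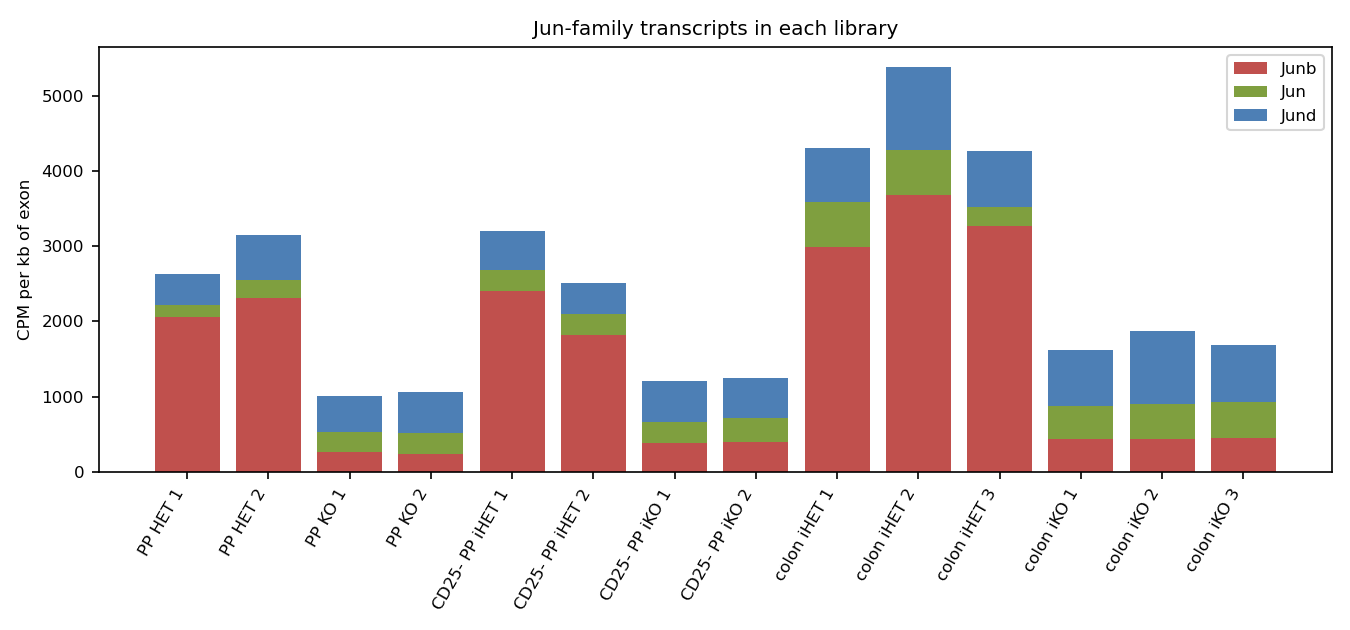
Stacked levels of Junb, Jun and Jund in each of the 14 libraries, in TMM-normalised CPM per kilobase of exon. Bars of deleted libraries reach 1014 to 1879 CPM per kilobase and bars of controls 2513 to 5380, and the difference lies in the Junb segment.

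Fos genes encode the partners of Jun proteins, and none of the 3 was called between genotypes with all libraries. Fos (chr12:85473890-85477273, plus strand, 4 exon blocks) was read at 1107 and 1487 CPM in PP HET and 1116 and 1203 CPM in PP KO, at 1703 and 2171 CPM in CD25- PP iHET and 1642 and 2039 CPM in iKO. In the colon it was read at 2265, 3068 and 2000 CPM in iHET and 2095, 2797 and 2760 CPM in iKO libraries. The groups overlapped in each population, with log2 differences of -0.16, -0.08 and 0.07. Next to Junb, Fos was the second most abundant member per kilobase in each control group, and it ranked first in CD25- PP iKO and colonic iKO and second after Jund in PP KO. With the shared exon bases left out of the lengths, Jund ranked second in the controls and first in the 3 deleted groups.

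Fosb, which encodes FosB (chr7:19302696-19310051, minus strand), varied over a wide range within groups. It was read at 80.8 and 174 CPM in PP HET and 82.2 and 142 CPM in PP KO, and at 243 and 93.6 CPM in CD25- PP iHET and 216 and 169 CPM in iKO. In the colon it was read at 626, 1495 and 574 CPM in iHET and 581, 1214 and 562 CPM in iKO libraries. Replicate 2 was the highest of both colonic groups. The log2 differences between genotypes were -0.18 (SE 0.344), 0.19 (SE 0.409) and -0.15 (SE 0.106), and the groups overlapped in each population. The second was -0.35 without CD25- PP iHET replicate 2.

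Fosl2, which encodes Fra-2 (chr5:32135801-32157842, plus strand), was read at 351 and 421 CPM in PP HET and at 422 and 473 CPM in PP KO libraries, a difference without overlap that was not called (log2 difference 0.21, FDR = 0.452). In CD25- PP Tregs iHET replicate 1 lay at 518 CPM and replicate 2 at 70.1 CPM, and the iKO libraries at 478 and 388 CPM lay between them. The log2 difference of 0.55 (SE 0.772) turned to -0.27 without that low library, and without iHET replicate 1 it was 2.62 and was called (FDR = 0.00214). In colonic Tregs it was read at 593, 746 and 589 CPM in iHET and 555, 723 and 440 CPM in iKO libraries, with a log2 difference of -0.19 (SE 0.121).

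Batf, the bZIP partner through which Jun proteins meet IRF4 (chr12:85686669-85709087, plus strand, 3 exon blocks), was the member with the lowest p after Junb in both PP populations. It was read at 224 and 215 CPM in PP HET and at 272 and 280 CPM in PP KO libraries, at 163 and 105 CPM in CD25- PP iHET and at 196 and 265 CPM in iKO. Deleted libraries of both PP populations lay above all their controls. The log2 difference was 0.33 (SE 0.0745; FDR = 0.0597) in PP Tregs and 0.78 (SE 0.246; FDR = 0.999) in CD25- PP Tregs. With 1 library left out the latter ranged from 0.49 (without iHET replicate 2) to 1.12. In PP Tregs edgeR's exact test called Batf (FDR = 0.0274). In colonic Tregs it was read at 141, 194 and 270 CPM in iHET and 206, 232 and 255 CPM in iKO, groups that overlapped (log2 difference 0.24, FDR = 0.947). The difference of the Batf log2 change between colonic and CD25- PP Tregs was -0.59 (SE 0.387) and was not called.

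Batf3, best known from dendritic cells, had the lowest level of the members. Its 14 values ranged from 0.144 to 2.66 CPM, and it did not reach 1 CPM in enough PP libraries to be tested there. In CD25- PP and colonic Tregs the log2 differences were 0.73 (SE 0.616) and -0.30 (SE 0.602), neither called.

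Irf4, the interferon regulatory factor that binds with BATF and Jun (chr13:30749226-30766976, plus strand, 10 exon blocks), was read at 134 and 172 CPM in PP HET and 143 and 195 CPM in PP KO libraries. In CD25- PP Tregs it was read at 138 and 75.9 CPM in iHET and 128 and 123 CPM in iKO libraries. In the colon the iHET libraries lay at 280, 403 and 297 CPM and the iKO libraries at 249, 313 and 240 CPM. The groups overlapped, and the log2 difference of -0.28 (SE 0.0973) did not pass over all genes (FDR = 0.947). The log2 differences in PP and CD25- PP Tregs were 0.15 (SE 0.161) and 0.22 (SE 0.267), the second turning to -0.15 without iHET replicate 2.

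Atf3 (chr1:191170296-191218039, minus strand, 5 exon blocks) was read at 40.9 and 61.0 CPM in PP HET and 33.7 and 48.0 CPM in PP KO, and at 43.6 and 15.6 CPM in CD25- PP iHET and 32.4 and 56.9 CPM in iKO. In colonic Tregs it was read at 185, 487 and 298 CPM in iHET and 187, 396 and 305 CPM in iKO libraries. The ranges of the 2 genotypes overlapped in every population. The log2 differences were -0.32 (SE 0.217), 0.58 (SE 0.489) and -0.09 (SE 0.110), and the second was 0.02 without CD25- PP iHET replicate 2.

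Counted over the members, 1 of 9 tested was called in PP Tregs (Junb, lower) where 3.35% of 12224 genes were called, 0 of 10 in CD25- PP Tregs where 0% of 17079 were called (618 at an unadjusted p under 0.05; 35 by DESeq2), and 1 of 10 in colonic Tregs (Junb, lower) where 0.00613% of 16313, Junb alone, were called. With the tests of the study 5.64%, 0.252% and 0.153% of genes were called and the members called were Junb and Batf, Junb, and Junb. Groups without overlap were found for 4 of 9 members in PP (Jun, Fosl2 and Batf higher, Junb lower) against 43.6% of all genes, for 3 of 10 in CD25- PP (Jund and Batf higher, Junb lower) against 32.2%, and for 1 of 10 in colonic Tregs (Junb) against 8.30%. The median log2 difference of the members tested was 0.04, 0.21 and -0.12 in the 3 comparisons, beside medians of 0.00, 0.00 and 0.00 over all genes, and without CD25- PP iHET replicate 2 the second was 0.03.

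**Figure D3:**
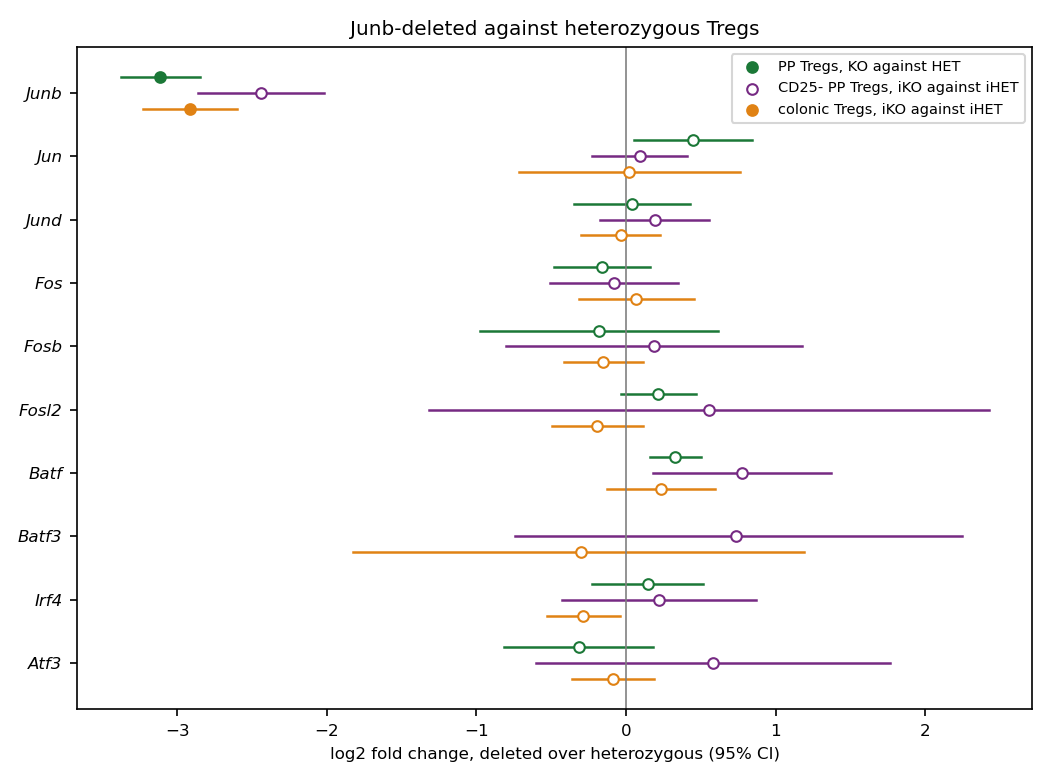
Log2 difference between deleted and heterozygous Tregs for each member in PP, CD25- PP and colonic Tregs, with 95% confidence intervals as lines; filled points are called at FDR 0.05, and Batf3 has no value in PP Tregs. Junb lies between -3.11 and -2.44, apart from all others, whose point estimates lie between -0.32 and 0.78.

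Members were compared between organs as well, in the inducible line, where colonic Tregs were set against CD25- PP Tregs of the same genotype. These comparisons share libraries with the genotype comparisons. Atf3 differed most: its mean was 323 CPM ± 152 (SD, n = 3) in colonic and 29.6 CPM ± 19.8 (n = 2) in CD25- PP iHET Tregs, and 296 ± 105 (n = 3) and 44.6 ± 17.3 (n = 2) in iKO Tregs. The fold was 10.9 (log2 difference 3.44, FDR = 0.0426) in iHET and 6.59 (2.72, FDR = 0.0168) in iKO Tregs, and no colonic library overlapped a CD25- PP library. Without CD25- PP iHET replicate 2 the first was 2.87 on the log2 scale and was not called (FDR = 0.273). With the replicate number, which carries the sex of the mice, as a block it was not called either (FDR = 0.158), when 49 genes were called in all. Its call was lost too without CD25- PP iHET replicate 1, colonic iHET replicate 2 or colonic iHET replicate 3.

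In iKO Tregs 3 more members were higher in the colon. Irf4 was 2.11-fold higher (log2 difference 1.08, SE 0.146; FDR = 0.0148), Fosb 4.05-fold (2.02, SE 0.381; FDR = 0.0312) and Jun 1.54-fold (0.62, SE 0.103; FDR = 0.0238). In iHET Tregs their log2 differences were 1.61 (FDR = 0.0518), 2.41 (FDR = 0.0903) and 0.81 (FDR = 0.311), none called. Without CD25- PP iHET replicate 2 those of Irf4 and Fosb were 1.23 and 1.87, and with any 1 library left out they reached up to 2.09 and 3.25. Irf4 was called without colonic iHET replicate 1 (1.71, FDR = 0.0473) and Jun without colonic iHET replicate 3 (1.12, FDR = 0.0474). Jund lay 0.87 (FDR = 0.122) higher in iHET and 0.61 (FDR = 0.0528) higher in iKO on the log2 scale and was not called. All 4 calls in iKO Tregs were lost when either CD25- PP iKO library was left out, and that of Jun also without colonic iKO replicate 2.

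Junb itself was read at a mean of 7616 CPM ± 808 (n = 3) in colonic and 4865 CPM ± 965 (n = 2) in CD25- PP iHET Tregs, without overlap, a log2 difference of 0.65 (SE 0.211) that did not pass over all genes (FDR = 0.166). In iKO Tregs the means were 1011 CPM ± 17.9 (n = 3) and 901 CPM ± 14.3 (n = 2), a log2 difference of 0.15 (SE 0.0820; FDR = 0.298). Fos (log2 differences 0.33 and 0.46), Fosl2 (1.13 and 0.39), Batf (0.59 and -0.01) and Batf3 (0.25 and -0.57) were called in neither genotype with all libraries. Without CD25- PP iHET replicate 2 the iHET difference was 0.30 for Fosl2 and 0.29 for Batf, and without replicate 1 that of Fosl2 was 3.19. The iHET difference of Batf reached up to 0.93 with 1 library left out.

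Over the 10 members, 1 was called higher in the colon in iHET Tregs, where 2.49% of 17238 genes were called, and 4 were called higher in iKO Tregs, where 7.30% of 17362 genes were called. Groups did not overlap for 6 members in iHET (Junb, Jund, Fosb, Fosl2, Irf4 and Atf3) against 39.1% of all genes and for 7 in iKO (Junb, Jun, Jund, Fos, Fosb, Irf4 and Atf3) against 45.2%, each of them higher in the colon. The median log2 difference of the members was 0.84 in iHET and 0.53 in iKO, beside 0.00 and 0.00 over all genes, and the first was 0.60 without CD25- PP iHET replicate 2. Markers of other cells differed between organs, not all in the same direction. Of 8 B and plasma cell markers 4 had log2 differences above 0 in iHET Tregs (1 called) and 4 below. In iKO Tregs 3 lay above 0 and 5 below (1 called lower). The 2 CD8 markers lay below 0 in each genotype, uncalled. Summed stromal and endothelial markers were 94.8 to 156 CPM in CD25- PP and 159 to 984 CPM in colonic libraries, and summed epithelial markers were 97.1 to 258 CPM and 120 to 1140 CPM. Of the stromal and endothelial markers tested 1 of 5 in iHET and 3 of 5 in iKO Tregs were called higher in the colon, of the myeloid and dendritic markers 2 of 9 and 1 of 8, and of the epithelial markers 0 of 8 in both. Their part in the differences between organs was not tested.

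**Figure D4:**
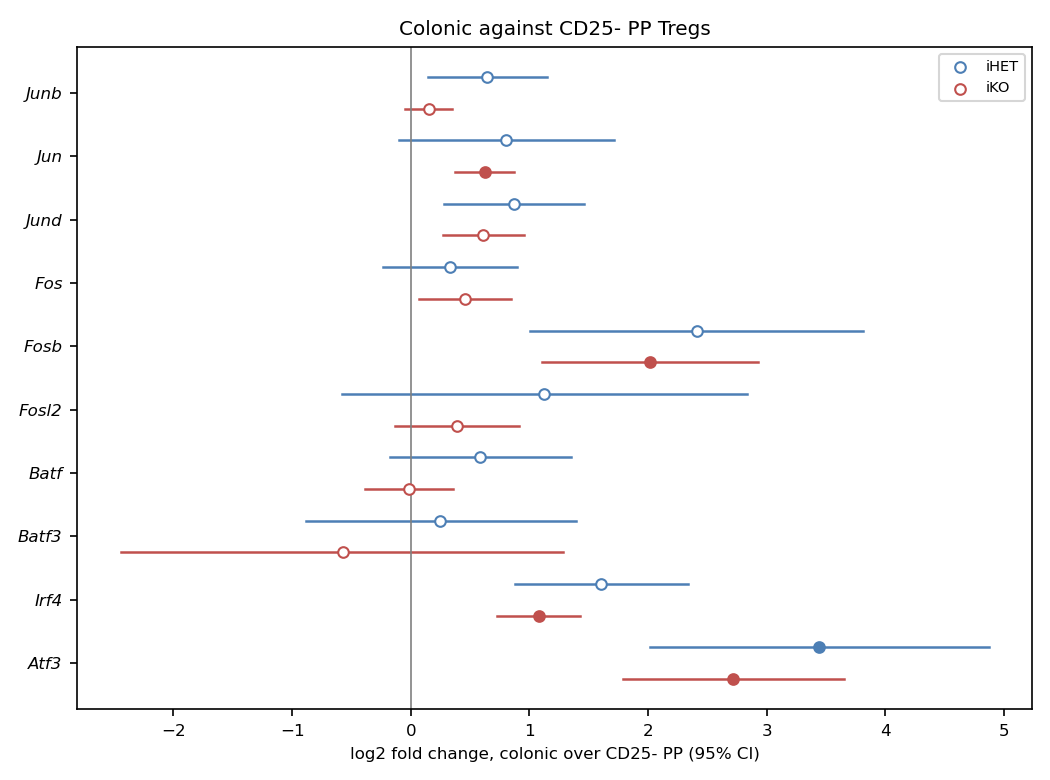
Log2 difference between colonic and CD25- PP Tregs for each member, in iHET and in iKO Tregs, with 95% confidence intervals as lines; filled points are called at FDR 0.05. Atf3 lies farthest to the right in both genotypes (3.44 and 2.72), followed by Fosb and Irf4.

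Whether the genotype effect itself differed between organs or lines was tested by interaction terms. No member was called in either test with all libraries, and Fosl2 was called between lines without CD25- PP iHET replicate 1 (2.41, FDR = 0.0118). The tests called 0% of 18626 genes between organs (622 at an unadjusted p under 0.05; 2 by DESeq2) and 0.00584% of 17109 genes between the lines in PP. The interactions of members other than Junb between organs ranged from -0.80 (Batf3, SE 0.970) to 0.14 (Fos, SE 0.299), and between lines from -0.34 (Jun, SE 0.247) to 1.66 (Batf3, SE 1.03). No detection limit was computed, and with standard errors of this size the lack of a call does not show equal genotype effects.

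Other genes of the pathway were read from lists, in PP Tregs beside the 3.35% of 12224 genes that were called between genotypes there. Of 21 other bZIP factors tested in PP Tregs, 0 were called higher and 1 lower, Jdp2, a repressor that pairs with Jun proteins (log2 difference -1.23, FDR = 0.0322). Of 19 MAP kinases and MAP kinase phosphatases, which act upstream of AP-1, 2 were higher, Dusp5 (0.53, FDR = 0.0398) and Dusp4 (0.54, FDR = 0.0468), and 1 lower, Dusp6 (-0.55, FDR = 0.0467), all 3 being phosphatases. Of 20 immediate early genes 1 was higher, Nfkbia, the inhibitor of NF-kB (0.54, FDR = 0.0350), and 1 lower, the nuclear receptor Nr4a2 (-1.24, FDR = 0.0217). Of the 8 other IRF factors 0 were called, and of 12 effector Treg genes linked to BATF or IRF4, 2 were higher, the chemokine receptor Ccr6 (1.13, FDR = 0.00120) and the regulator Prdm1 (0.38, FDR = 0.0441), and 2 lower, the inhibitory receptor Tigit (-0.50, FDR = 0.0132) and the chemokine receptor Ccr8 (-0.56, FDR = 0.0239).

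In CD25- PP and colonic Tregs 0 genes of these 5 lists were called between genotypes. There 0 of 17079 genes and Junb alone of 16313 were called, so that these counts say nothing particular to the lists. The median log2 difference of the immediate early genes was 0.40 in CD25- PP Tregs, with 18 of 20 above 0, and 0.08 without iHET replicate 2, with 14 above 0. The effector Treg genes had a median of 0.31 there, with all 12 above 0, and of 0.08 without that library. The heat shock genes Hspa1a and Hspa1b had the lowest p of the immediate early list in CD25- PP Tregs, uncalled: Hspa1a was read at 50.4 and 58.7 CPM in iHET and at 67.1 and 767 CPM in iKO, so that its log2 difference of 2.92 rests on iKO replicate 2. In colonic Tregs the medians of the 2 lists were 0.02 and -0.19. The values for CD25- PP Tregs thus moved with that library in the immediate early and effector lists as they did in Fosl2, Fosb and Atf3.

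In iHET Tregs, where 2.49% of 17238 genes were called, the lists were compared between organs as well. There 3 of 20 immediate early genes were higher in the colon, the heat shock genes Hspa1a (3.92 on the log2 scale, FDR = 0.0154) and Hspa1b (3.74, FDR = 0.0154), near-identical copies whose reads may be split or lost, and Nfkbia (1.82, FDR = 0.0374), and 0 were called lower. Other calls in iHET Tregs, all higher in the colon, were 3 of 8 IRF factors (Irf1 1.23, Irf5 1.05 and Irf8 1.09), 1 of 19 MAP kinases (Map2k3, 1.25) and 6 of 12 effector genes, among them the IL-33 receptor gene Il1rl1 (2.99), Klrg1 (3.91), the cytokine gene Il10 (1.18) and Ccr6 (1.25). None of these calls held without CD25- PP iHET replicate 2, when 2 genes were called in all. The log2 differences were then 4.02 for Hspa1a, 3.71 for Hspa1b, 3.77 for Klrg1, 2.69 for Il1rl1 and 1.18 for Irf1. Of 23 other bZIP factors 0 were called in iHET Tregs.

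In iKO Tregs 699 of 17362 genes were called higher in the colon and 568 lower. Of 20 immediate early genes 7 were called higher there and 4 lower. By lowest p these were Nfkbia (1.40), Ier3 (2.56) and Zfp36, an RNA decay factor (1.04), which were higher, and Egr2 (-1.80), which was lower. Of 22 other bZIP factors 3 were higher, with Atf4 (0.62) among them, and 2 lower, Maf (-0.82) and Cebpb (-0.46). Of 8 IRF factors 3 were higher (among them Irf1 1.02 and Irf8 0.88) and 1 lower (Irf2, -0.60), and 4 of 19 MAP kinases and phosphatases were higher (Dusp4 0.80, Map2k3 0.74, Dusp2 0.64 and Mapk11 0.65). Of 12 effector genes 6 were higher, among them Klrg1 (3.17), Tnfrsf9 (a fold of 2.84), Il1rl1 (2.41) and Ccr6 (1.10), and 0 were called lower. When 1 library was left out, 48 to 1145 genes were called in all in this comparison.

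The genes whose pattern was most like that of Junb over the 14 libraries were found by Pearson's r of log2 CPM after the mean of each of the 3 populations was taken off, among 10661 genes. They were Pdcd6ip (r = 0.91), Mri1 (0.90), Tox2 (0.89), Adrm1 (0.84) and Inppl1 (0.84). Tox2, a high mobility group factor, was read at 363 to 429 CPM in PP HET and 200 to 215 CPM in PP KO, and at 351 to 422 CPM in colonic iHET and 179 to 238 CPM in colonic iKO libraries, while in CD25- PP Tregs the groups overlapped (357 to 474 and 342 to 384 CPM). Mri1 lies on chromosome 8 and ends 717158 bases before Junb. It was read at 53.6 to 54.1 CPM in PP HET and 34.9 to 39.5 CPM in PP KO, at 44.4 to 47.1 and 30.3 to 32.4 CPM in CD25- PP iHET and iKO, and at 38.4 to 52.4 and 28.1 to 35.4 CPM in colonic iHET and iKO libraries, without overlap in any population. Pdcd6ip, an ESCRT-associated protein gene, covered a small range, from 368 to 447 CPM over all libraries. No other member was among them: the r with Junb was 0.09 for Fos, the highest, and -0.56 for Batf, the lowest. These correlations are descriptions over libraries that share genotype groups and tables. The genes were picked by this pattern, so that their separation by genotype is no further result. Of all genes 43.6%, 32.2% and 8.30% separated without overlap in PP, CD25- PP and colonic Tregs.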

How the data were processed

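RNA of sorted Tregs was amplified with a low-input SMARTer kit and sequenced. The authors trimmed the reads with Trim Galore, mapped them to mm10 with STAR, keeping unique matches, and counted them per gene with featureCounts without strand; in the inducible line the reverse reads were left out. The deposited values were raw counts per gene, in 1 table per mouse line. Ensembl IDs (55394 of 55487 and 53706 of 53801) were matched to GENCODE M21 symbols and exon lengths (the study names release M22). Genes with at least 1 CPM in as many libraries as the smaller group were tested with edgeR 4.0.16 (R 4.3.3) by TMM, glmQLFit and glmQLFTest, with a prior count of 1 and Benjamini-Hochberg adjustment over all genes tested (FDR 0.05). The colonic fit had the replicate number as cage, after the study's model, though the sample titles give the number alone. All other fits had genotype or group terms alone. Interactions were contrasts of group means, between lines over the genes of both tables. Confidence intervals have 95% coverage. Nothing in the labels says whether each PP library is 1 mouse or a pool, so p-values there measure the spread between these libraries, which may be technical. Floors cover counting error only, since reads carried no molecular identifiers.

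The members and the gene lists were chosen with earlier results of these data known. All 10 members were named in every comparison; of other lists, at most 4 called genes per list and comparison were named by lowest p, and the 5 genes most like Junb among those with at least 1 CPM in all 14 libraries. Promoter windows are RefSeq sequences. Alternatives were DESeq2 1.42.0, other size factors, other filters, the tests of the study, a replicate block and leaving out each library; the exon-length variant and the lists without CD25- PP iHET replicate 2 were chosen after seeing the data. Scripts were tested on simulated data. Figures were drawn with matplotlib 3.10.9.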

Additional observations from a re-analysis of the deposited data

How the results depend on the processing

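The number of members called depended on the test and the filter. In PP Tregs 1 member was called; DESeq2 and edgeR's exact test called 2 (Junb and Batf), and no filter on low counts called 3 (Jun as well). In CD25- PP Tregs 0 were called; DESeq2, the exact test and a filter of at least 10 counts in every library each called 1 (Junb), and no filter called 2 (Junb and Batf). In colonic Tregs Junb alone was called under each alternative that kept all libraries. Between organs in iHET Tregs 1 member was called, and 5 with DESeq2, 6 with no filter and 2 with at least 10 counts; in iKO Tregs 4 were called, and 7 with no filter and 4 to 6 under the other alternatives that kept all libraries. In the interaction with the mouse line 0 were called, and 2 with no filter (Junb and Atf3); in that with the organ 0 were called throughout. When 1 library was left out, the number ranged from 1 to 2 in PP, 0 to 2 in CD25- PP and 0 to 1 in colonic Tregs, 0 to 2 and 0 to 4 between organs in iHET and iKO Tregs, and 0 to 1 in the interaction with line. A lone library left in a group was assumed to vary like the others.

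Same-numbered libraries did not deviate together in every pair (r from -0.0885 to 0.293 within the genotype comparisons), so the numbers were not taken as a pairing outside the colonic model of the study. In the inducible line the number also carries the sex of the mice, which the main CD25- PP and organ fits therefore left out. With the replicate block 3 members were called in PP Tregs (Junb, Jun and Batf), 0 in CD25- PP Tregs, 0 between organs in iHET and 4 in iKO Tregs, and 0 in both interactions. With no replicate block in colonic Tregs 1 member was called, and the log2 difference of Jun turned to -0.079. The count of all genes called in PP Tregs rose from 409 to 1015 with the block, 689 with the exact test, 696 with DESeq2 and 1305 with no filter. In colonic Tregs 1 gene was called and 50 with DESeq2, 25 with the likelihood ratio test and 24 with no filter; in CD25- PP Tregs 0, and 35 with DESeq2, 43 with the exact test and 232 with no filter. Between organs 430 genes were called in iHET and 1267 in iKO Tregs, against 1937 and 3123 with DESeq2 and 2073 and 3206 with no filter, and 49 in iHET with the block. When 1 library was left out, 36 to 390 genes were called in PP, 2 to 77 in CD25- PP and 0 to 5 in colonic Tregs, and 2 to 756 and 48 to 1145 between organs in iHET and iKO Tregs. The interaction with the line called 1 gene and 210 with DESeq2 and 621 with no filter, and that with the organ 0 and 282 with no filter.

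Members' log2 differences that changed sign when 1 library was left out were all uncalled with all libraries. Of these Fosl2 was called without CD25- PP iHET replicate 1, in CD25- PP Tregs (2.62, FDR = 0.00214) and in the interaction with the line (2.41, FDR = 0.0118). Their ranges in PP Tregs were -0.22 to 0.35 for Jund, -0.36 to 0.063 for Fos, -0.64 to 0.47 for Fosb and -0.10 to 0.35 for Irf4. In CD25- PP Tregs they were -0.0066 to 0.18 for Jun, -0.25 to 0.10 for Fos, -0.35 to 1.03 for Fosb, -0.27 to 2.62 for Fosl2, -0.076 to 1.25 for Batf3 and -0.15 to 0.71 for Irf4. In colonic Tregs they were -0.42 to 0.29 for Jun, -0.077 to 0.030 for Jund, -0.12 to 0.17 for Fos, -0.75 to 0.33 for Batf3 and -0.14 to 0.016 for Atf3. Between organs in iKO Tregs they were -0.22 to 0.21 for Batf and -1.23 to 0.23 for Batf3, and Batf also turned to 0.031 with no filter. In the interaction with the organ they were -0.50 to 0.016 for Jun, -0.048 to 0.33 for Fos, -1.23 to 0.20 for Fosb, -2.79 to 0.092 for Fosl2 and -1.47 to 0.012 for Batf3. In the interaction with the line they were -0.16 to 0.41 for Jund, -0.14 to 0.28 for Fos, -0.29 to 1.21 for Fosb, -0.47 to 2.41 for Fosl2 and -0.29 to 0.57 for Irf4. The cause was not tested. The log2 difference of Junb kept its sign under every alternative in the 3 genotype comparisons.

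The residual Junb share ranged from 10.9% to 12.3%, 16.2% to 21.6% and 12.7% to 14.1% in PP, CD25- PP and colonic Tregs when 1 library was left out. The Junb share of the Jun genes moved with the exon bases shared with other genes left out, a setting chosen after seeing the data, to 65.4% and 16.6% in PP HET and KO, 63.8% and 22.6% in CD25- PP iHET and iKO, and 60.9% and 17.6% in colonic iHET and iKO; not divided by length it was 32.8% in CD25- PP iKO. The 2 or 3 libraries a group limit each comparison, and Batf3 rests on few reads.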
